A study of Mus musculus with 8 samples.

Results

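The 45 genes described here are the DNA replication and mitosis genes of a proliferating cell, 19 that copy DNA and 26 that divide the copied chromosomes. They are a named list of symbols taken from the 21812 gene symbols of a raw count table, and every one of them was present and had enough counts to be tested. RNA-seq was done on mouse embryonic stem cells (mESC) in a primitive endoderm induction medium; primitive endoderm is the extraembryonic lineage beside the epiblast of the blastocyst. The 8 libraries form 4 groups of 2. The groups are the libraries labelled Mettl3 cKO (conditional knockout of Mettl3), their Mettl3 WT, Virma cKO (conditional knockout of Virma) and their Virma WT, and all 4 groups share the cell type and the medium. The series asks how N6-methyladenosine (m6A), a methyl mark on mRNA, acts in primitive endoderm development. Mettl3 is the catalytic subunit of the complex that writes m6A, and Virma is a scaffold subunit of the same complex. The sources used here do not give the allele, the agent that induces the deletion, or the number of clones. The labels carry the tag D2 without saying what it means, and they do not say that the libraries of a group came from separate cultures. P-values therefore reflect how libraries of a group vary, and that variation may be technical.

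Before S phase, the origin recognition complex together with Cdc6 and Cdt1 loads the MCM helicase on DNA, and GINS and Mcm10 then help to activate it. The sliding clamp Pcna, placed on DNA by the clamp loader RFC, holds the polymerases, while ribonucleotide reductase and thymidylate synthase supply nucleotides. Entry into mitosis is driven by Cdk1 with the A- and B-type cyclins, the spindle checkpoint holds anaphase until all kinetochores are attached, and the anaphase-promoting complex with Cdc20 then destroys the B-type cyclins. Embryonic stem cells divide fast and spend much of their cycle in S phase, and transcripts of both classes are abundant in them. Genes of the replication class are known as targets of E2F transcription factors, and genes of the mitotic class are known to carry a cell cycle homology region (CHR) that binds the DREAM and MMB complexes, often near CCAAT boxes bound by NF-Y.

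These short words were spread unevenly between the classes, and a promoter of each class is printed to show them. Of the 45 members, 38 matched the promoter table by symbol, 16 replication and 22 mitotic genes. The table is from RefSeq on the build GRCm38.p6 and gives 250 bases before to 50 bases after the annotated start of each gene. The words searched on both strands were TTTCCCGC, TTTCGCGC, TTTGGCGC and TTTGCCGC for E2F, TTTGAA for the CHR and CCAAT for NF-Y. Any E2F word was found in 8 of 16 replication promoters (50%) and 1 of 22 mitotic promoters (4.55%), against 2.32% of all 27025 genes in the table. A CHR was found in 1 of 16 replication promoters (6.25%) and 16 of 22 mitotic promoters (72.7%), against 18.1% of all genes. Within 50 bases of the start site a CHR began in 0 of 16 replication promoters and 15 of 22 mitotic promoters (68.2%), against 4.92% of all genes. CCAAT boxes were frequent in both classes, in 12 of 16 (75%) and 19 of 22 (86.4%), against 37.9% of all genes. Each of these words is short, E2F words shared 4 bases with each other in Mcm5 and Mcm6, and single bases were shared between an E2F word and a CCAAT box in Mcm7 and between a CHR and a CCAAT box in Cdca8. In Ube2c a pair of CCAAT boxes shared 2 bases. The windows of Rfc4, Tyms, Mad2l1, Nusap1 and Birc5 held none of the words searched. Tpx2, Ccna2, Mcm4, Aurkb, Kif20a, Gins1 and Gins2 had no entry.

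The printed pair are the replication and the mitotic promoter with the most matches, Mcm3 (chr1:20820263-20820562, minus strand) with 5 and Top2a (chr11:99024140-99024439, minus strand) with 8, with Mcm3 taken from a tie by its larger change in Virma cKO. Capitals mark matches on either strand. In Mcm3 these are CCAAT boxes at 117, 72 and 32 bases before the start site and E2F words after it. In Top2a they are 6 CCAAT boxes and CHR matches at 179 and 23 bases before the start site.
Mcm3 promoter: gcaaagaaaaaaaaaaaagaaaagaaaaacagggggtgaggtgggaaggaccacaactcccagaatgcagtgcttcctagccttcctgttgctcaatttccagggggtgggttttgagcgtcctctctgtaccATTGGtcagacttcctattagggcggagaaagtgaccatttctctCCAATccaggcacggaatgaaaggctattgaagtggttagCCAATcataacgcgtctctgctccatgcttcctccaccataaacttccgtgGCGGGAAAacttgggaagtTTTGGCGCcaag
Top2a promoter: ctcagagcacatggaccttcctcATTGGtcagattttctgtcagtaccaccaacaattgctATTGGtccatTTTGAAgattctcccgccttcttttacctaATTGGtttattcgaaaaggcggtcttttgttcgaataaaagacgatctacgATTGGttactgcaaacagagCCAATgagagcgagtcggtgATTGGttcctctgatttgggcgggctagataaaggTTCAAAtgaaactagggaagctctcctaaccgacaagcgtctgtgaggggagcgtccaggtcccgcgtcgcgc
A match is a description of letters and not a bound site.

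**Figure D1:**
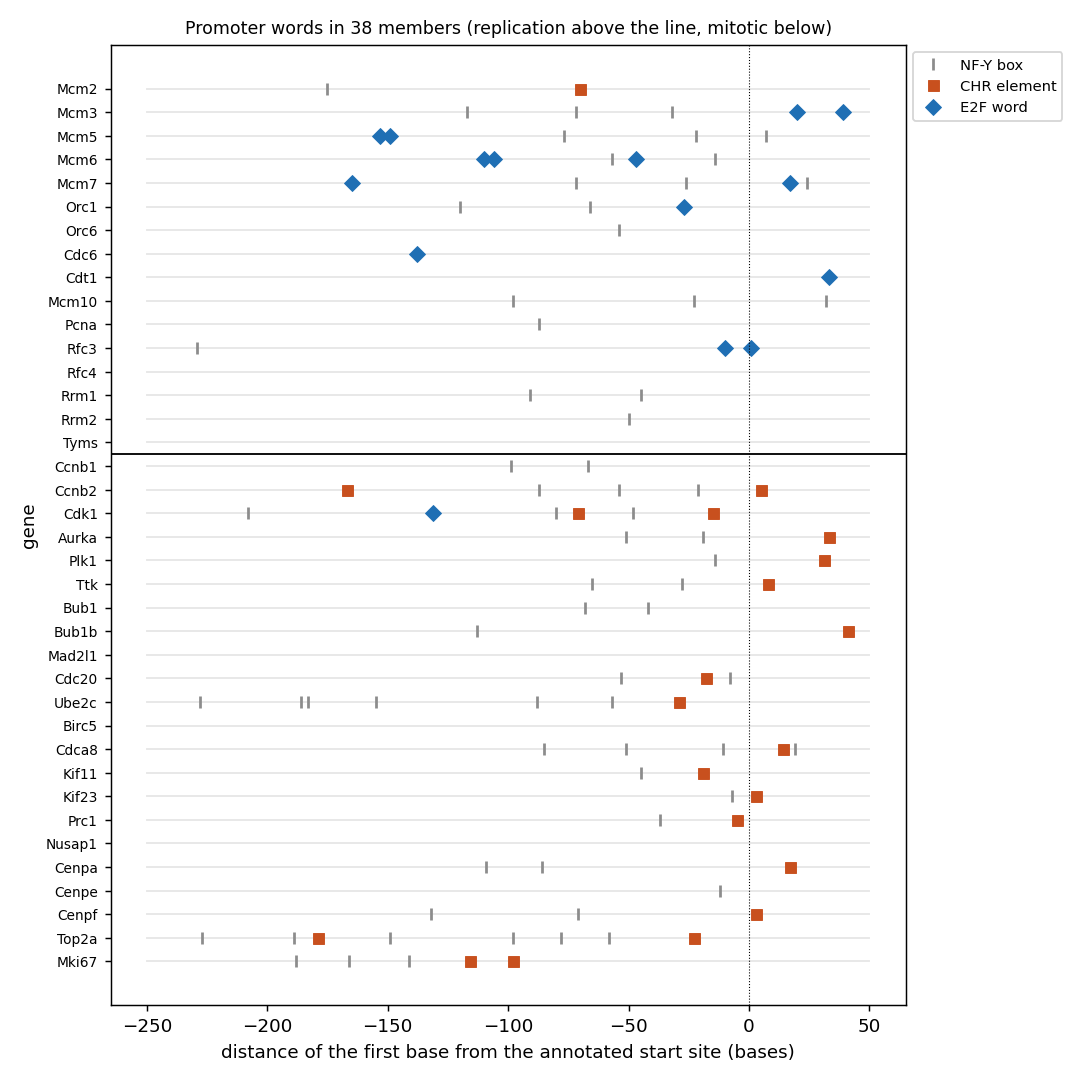
Positions of matches to E2F words (blue diamonds), the CHR word (orange squares) and CCAAT, the word searched for NF-Y (grey ticks), in promoters of 38 members. The x axis gives the distance of the first base from the annotated start site in bases. Genes are on the y axis, replication genes above the line. The blue diamonds lie in 8 replication promoters and 1 mitotic promoter, and the orange squares in 16 mitotic promoters and 1 replication promoter.

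Library totals were 15568628 to 17306227 counts, and the 45 members held 0.854% to 1.01% of them. The Virma cKO libraries differed over all genes by less than sampling noise (chi-square per degree of freedom 0.914, against 1.31 to 2.84 for the other pairs), were counted as 1 sample, and have no SD below. In 505 genes whose counts summed to 10000 or more over the pair it did differ by more (3.46). Mettl3 had 35.4 and 33.9 CPM in libraries labelled Mettl3 cKO, against 35.7 and 35.2 CPM in Mettl3 WT, a log2 fold change of −0.04 ± 0.07 (adjusted p = 0.695 in edgeR's quasi-likelihood test), so gene counts do not check the Mettl3 labels. The sources used here do not give the deleted part of either gene. Virma had 70.8 and 73.8 CPM in Virma cKO, against 93.3 and 88.8 CPM in Virma WT, a log2 fold change of −0.33 ± 0.06. Mettl3 was lower in the same libraries, with 34.1 and 33.6 CPM in Virma cKO, against 45.8 and 44.3 CPM in Virma WT (−0.42 ± 0.09). Of 10 primitive endoderm markers, 9 were lower in the libraries labelled Mettl3 cKO and 10 in Virma cKO. Their sums were 5453 and 5476 CPM in libraries labelled Mettl3 cKO, against 8569 and 8594 CPM in Mettl3 WT, and 1001 and 1015 CPM in Virma cKO, against 6960 and 6984 CPM in Virma WT. Of 13 fibroblast markers, 12 were higher in the libraries labelled Mettl3 cKO and 13 in Virma cKO. Their sums were 399 and 399.7 CPM in libraries labelled Mettl3 cKO, against 205 and 219 CPM in Mettl3 WT, and 1229 and 1221 CPM in Virma cKO, against 525 and 521 CPM in Virma WT. Pluripotency markers summed to 1984 and 2036 CPM in libraries labelled Mettl3 cKO against 2045 and 2059 CPM in Mettl3 WT, and to 1317 and 1329 CPM in Virma cKO against 2069 and 2111 CPM in Virma WT. Trophectoderm markers summed to 862 and 905 CPM in libraries labelled Mettl3 cKO against 916 and 926 CPM in Mettl3 WT, and to 1205 and 1210 CPM in Virma cKO against 916 and 934 CPM in Virma WT. Krt8 (387 and 409 CPM in libraries labelled Mettl3 cKO) and Krt18 (315 and 331 CPM) held most of that sum. In those libraries 4 of 10 pluripotency markers were higher and 4 lower, and 3 of 10 trophectoderm markers were higher and 4 lower. In Virma cKO these numbers were 1 and 7, and 4 and 2. Of all genes tested, 27.1% were higher and 28% lower in libraries labelled Mettl3 cKO, and 26.2% and 26.1% in Virma cKO. Neuroectoderm markers summed to 55.2 to 76.3 CPM over all libraries. No marker was at 0 in any library but Elf5 in a Mettl3 WT library. The part of these markers in the results below was not tested.

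Replication and mitotic transcripts were abundant in every library. CPM here are counts per 1000000 library counts, scaled with TMM factors, which hold the bulk of genes level between libraries. Summed over the 19 replication genes they came to 4304 and 4344 in the libraries labelled Mettl3 cKO, against 4766 and 4692 in Mettl3 WT, and to 3399 and 3433 in Virma cKO, against 4668 and 4645 in Virma WT. Summed over the 26 mitotic genes they came to 4757 and 4668 in the libraries labelled Mettl3 cKO, against 5614 and 5548 in Mettl3 WT, and to 4663 and 4706 in Virma cKO, against 5535 and 5421 in Virma WT. Every cKO library lay below both WT libraries of its line in both sums, and the lowest replication sums were those of Virma cKO. The ratio of the replication sum to the mitotic sum was 0.905 and 0.931 in the libraries labelled Mettl3 cKO, against 0.849 and 0.846 in Mettl3 WT. It was 0.729 and 0.730 in Virma cKO, against 0.843 and 0.857 in Virma WT. The cKO ratios lay on opposite sides of the WT ratios, and groups did not overlap within either line. Abundant genes weigh most in such sums, as with Mki67 (677 and 677 CPM) and Top2a (647 and 660 CPM) in Virma cKO. The ratio without them was not computed. Per kilobase of longest annotated transcript, the highest levels in Mettl3 WT were those of Mcm2 (176 CPM per kb), Top2a (174), Mcm7 (163), Mcm3 (155) and Rrm2 (155), and the lowest was that of Rfc3, a clamp loader subunit (8.30). In bulk RNA, fewer cells in S phase or mitosis and less of these RNAs per cell cannot be told apart.

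**Figure D2:**
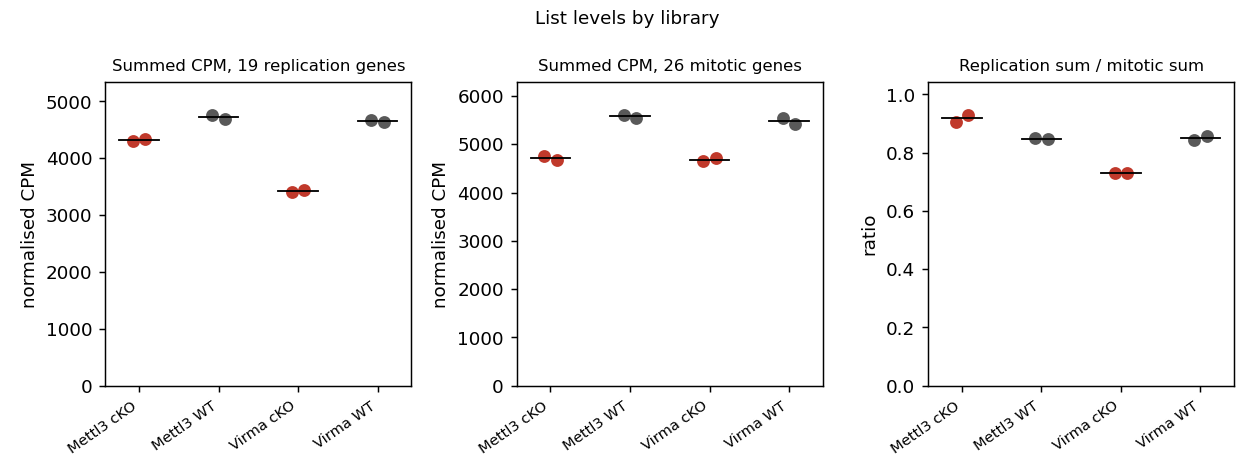
Summed normalised CPM of the 19 replication genes (left) and the 26 mitotic genes (middle) and their ratio (right) by library, with points for libraries, bars for group means, cKO in red and WT in grey. The ratio sits at 0.905 and 0.931 in Mettl3 cKO and near 0.73 in Virma cKO, with all WT libraries between them.

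In the libraries labelled Mettl3 cKO, 10 of 19 replication genes were lower, 3 were higher and 6 did not pass the test. Of 26 mitotic genes, 20 were lower, 2 were higher and 4 did not pass. Of all 14229 genes tested, 28% were lower and 27.1% higher, so the lower calls were 52.6% of the replication genes and 76.9% of the mitotic genes against a background of 28%. The median log2 fold change was −0.08 over the replication genes and −0.32 over the mitotic genes, against 0.01 over all genes. A call is an adjusted p under 0.05 in edgeR's quasi-likelihood test with Benjamini-Hochberg adjustment over all genes tested, and this holds for every adjusted p below. Leaving out 1 library of the Mettl3 line ended the calls of 7 genes that had small changes, Mcm6, Mcm7, Cdc6, Gins2, Aurkb, Cdca8 and Tpx2. Without the second library labelled Mettl3 cKO only 1 replication gene and 1 mitotic gene were higher (Gins2 stood at 0.16 and Aurkb at 0.13), and without the second Mettl3 WT library only 1 mitotic gene was (Aurkb stood at 0.11).

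Among subunits of the MCM helicase, Mcm4 had 231 and 218 CPM in libraries labelled Mettl3 cKO, against 325 and 297 CPM in Mettl3 WT. It was lower in both cKO libraries than in either WT library, by 0.47 ± 0.04 on the log2 scale (adjusted p = 6.22e-10). Mcm2 (log2 fold change −0.35 ± 0.03), Mcm3 (−0.21 ± 0.03) and Mcm6 (−0.08 ± 0.03) were also lower, Mcm7 was higher (0.08 ± 0.03), and Mcm5 did not pass (−0.00 ± 0.03). Orc1, the largest subunit of the origin recognition complex, had 62.2 and 61.8 CPM in libraries labelled Mettl3 cKO, against 81.3 and 82.6 CPM in Mettl3 WT, and the groups did not overlap (−0.40 ± 0.05, adjusted p = 5.08e-07). Cdc6, which loads the helicase with Orc1, was lower by 0.11, while Orc6 and Cdt1 did not pass (−0.05 and 0.03). Among factors that act when origins fire, Mcm10 (0.29 ± 0.04) and Gins2 (0.20 ± 0.05) were higher and Gins1 stood at 0.10 ± 0.07 without a call. Gins3, a GINS subunit outside the 45, was lower (−0.60 ± 0.09). Gins2 shares 67.3% of its exon bases with the oppositely directed gene Gse1, and the sources used here do not say whether reads were counted by strand.

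Rfc4, a subunit of the clamp loader, had 44.8 and 40.5 CPM in libraries labelled Mettl3 cKO, against 59.3 and 51.6 CPM in Mettl3 WT, with no overlap between groups. Its log2 fold change was −0.38 ± 0.07 (adjusted p = 0.000104), against 0.00 ± 0.09 for its partner subunit Rfc3 and −0.14 ± 0.03 for the clamp Pcna. Rrm2, the subunit of ribonucleotide reductase whose supply is tied to S phase, had 252 and 247 CPM in libraries labelled Mettl3 cKO, against 346 and 335 CPM in Mettl3 WT. It fell by 0.45 ± 0.03 (adjusted p = 6.05e-11), its larger partner Rrm1 by 0.18, and thymidylate synthase, Tyms, stood at 0.02 without a call.

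All 4 genes of the cyclins and Cdk1 were lower in the libraries labelled Mettl3 cKO. Cyclin A2, Ccna2, which acts in S phase and at mitotic entry, changed most (−0.50 ± 0.03), followed by Ccnb1 (−0.32 ± 0.04), Cdk1 (−0.28 ± 0.04) and Ccnb2 (−0.14 ± 0.04). Of the mitotic kinases, Bub1, a kinase of the spindle checkpoint, had 93.6 and 86.8 CPM in libraries labelled Mettl3 cKO, against 131 and 129.9 CPM in Mettl3 WT. The groups were far apart relative to their spread (−0.53 ± 0.05, adjusted p = 1.24e-09). Ttk, which starts checkpoint signalling at kinetochores, fell by 0.51 ± 0.07, Bub1b by 0.38 ± 0.03 and Plk1 by 0.29 ± 0.04, while the centrosome kinase Aurka stood at 0.05 ± 0.04 without a call.

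Mad2l1, the checkpoint protein that inhibits Cdc20, had 88.7 and 81.5 CPM in libraries labelled Mettl3 cKO, against 126 and 119 CPM in Mettl3 WT. Its log2 fold change was −0.53 ± 0.05 (adjusted p = 5.02e-09), and that of Cdc20 itself was −0.33 ± 0.05. With a trend on transcript length and GC content removed from the counts, Mad2l1 stood at −0.16 and Cdc20 at −0.54. Ube2c, the ubiquitin-conjugating enzyme that works with the anaphase-promoting complex, overlapped between groups, with 134 and 132 CPM in libraries labelled Mettl3 cKO, against 134 and 142 CPM in Mettl3 WT.

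The chromosomal passenger complex corrects attachments at centromeres and stands at the midzone in anaphase, and its subunits did not move together. Birc5 (survivin) had 299 and 296 CPM in libraries labelled Mettl3 cKO, against 184 and 175 CPM in Mettl3 WT, the largest change of any member in this comparison (0.73 ± 0.03, adjusted p = 2.21e-14). The kinase Aurkb was higher by 0.16 ± 0.05 (adjusted p = 0.0115), and Cdca8 (borealin) was lower by 0.18 ± 0.05. Birc5 in both libraries labelled Mettl3 cKO lay above every other library of the study.

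Prc1, which cross-links the microtubules of the central spindle, had 101 and 99.3 CPM in libraries labelled Mettl3 cKO, against 154 and 146 CPM in Mettl3 WT. It fell by 0.58 ± 0.04 (adjusted p = 4.33e-11), the largest decrease among the 45 genes here. Nusap1, a microtubule-bundling spindle protein, had 54.7 and 50.4 CPM in libraries labelled Mettl3 cKO, against 77.5 and 73.3 CPM in Mettl3 WT (−0.52 ± 0.06, adjusted p = 6.09e-08). The spindle motors Kif11 (−0.46 ± 0.05) and Kif23 (−0.37 ± 0.04) and the spindle assembly factor Tpx2 (−0.12 ± 0.03) were also lower, and the midzone motor Kif20a was not called (−0.04 ± 0.03). At centromeres, the kinetochore motor Cenpe (−0.44 ± 0.04) and the kinetochore protein Cenpf (−0.33 ± 0.04) were lower, and Cenpa, the centromeric histone H3 variant, did not pass (−0.02 ± 0.05). The chromosome proteins Top2a, which untangles sister DNA, and Mki67, which coats mitotic chromosomes, fell by 0.31 ± 0.03 and 0.34 ± 0.03. With the length and GC trend removed, several of these values were smaller by more than 1.5 times, Top2a at −0.0781, Mki67 at −0.0848, Cenpe at −0.13, Kif11 at −0.22, Bub1 at −0.34 and Nusap1 at −0.34. The calls of Mcm6, Mcm7, Cdc6, Rrm1, Aurkb, Tpx2 and Cenpf ended, and Cdt1, not called before, was called lower (−0.18). In that setting 8 replication and 19 mitotic genes were lower, against 25.7% of all genes.

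In Virma cKO, 16 of 19 replication genes were lower and none was higher, which was 84.2% lower against 26.1% of all genes tested. At an unadjusted p under 0.05 and in DESeq2 the number higher was also 0. Of 26 mitotic genes, 20 were lower (76.9%), 2 were higher, against 26.2% of all genes, and 4 did not pass. The medians were −0.41 for replication genes and −0.33 for mitotic genes, against 0.02 for all genes. With libraries scaled by total counts in place of TMM, the median of all genes moved by 0.128, 65.4% of all calls were higher in place of 50.02%, and 1 replication gene (Mcm10) and 5 mitotic genes were higher. The medians were then −0.29 for replication genes and −0.20 for mitotic genes, against 0.15 for all genes.

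All 6 subunits of the MCM helicase were lower in Virma cKO. Mcm2 had 317 and 319.8 CPM in Virma cKO, against 497 and 506 CPM in Virma WT. Both cKO libraries lay below all other libraries of the study, and the log2 fold change was −0.66 ± 0.04 (adjusted p = 2e-13). Mcm3 had 342 and 359 CPM in Virma cKO, against 528 and 547 CPM in Virma WT (−0.62 ± 0.04, adjusted p = 7.09e-13). Mcm5 had 285 and 286 CPM in Virma cKO, against 430.3 and 427 CPM in Virma WT (−0.59 ± 0.04, adjusted p = 3.11e-12), again with no overlap. Mcm4 (−0.49 ± 0.05), Mcm7 (−0.41 ± 0.04) and Mcm6 (−0.39 ± 0.03) completed the ring.

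Of the genes that load and activate the helicase, Cdc6 (−0.47 ± 0.05), Orc1 (−0.46 ± 0.06), Cdt1 (−0.42 ± 0.04), Gins2 (−0.38 ± 0.08) and Orc6 (−0.26 ± 0.05) were lower, and Gins1 (−0.14 ± 0.09) and Mcm10 (0.01 ± 0.05) did not pass. Among clamp genes, Rfc4 (−0.46 ± 0.09) and Pcna (−0.40 ± 0.04) were lower and Rfc3 (−0.19 ± 0.11) did not pass. All 3 genes of nucleotide supply were lower. Rrm2 had 219.7 and 219 CPM in Virma cKO, against 316 and 301 CPM in Virma WT (−0.50 ± 0.04, adjusted p = 6.4e-10), and Rrm1 and Tyms each fell by 0.34.

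All cyclins, Cdk1 and mitotic kinases of the list were lower in Virma cKO. Plk1, which acts at mitotic entry and at the kinetochore, had 90.4 and 90.4 CPM in Virma cKO, against 145 and 141 CPM in Virma WT. This was the largest change of the 45 genes in this comparison (−0.66 ± 0.05, adjusted p = 3.7e-10). Ccna2 had 143 and 137 CPM in Virma cKO, against 216 and 213 CPM in Virma WT (−0.61 ± 0.04, adjusted p = 4.27e-11). Ccnb1 had 178 and 178 CPM in Virma cKO, against 272 and 255 CPM in Virma WT (−0.57 ± 0.05, adjusted p = 2.06e-10). Ccnb2 (−0.47), Bub1b (−0.43), Aurka (−0.41), Ttk (−0.39), Cdk1 (−0.34) and Bub1 (−0.28) followed. Ccnb1, Ccnb2, Pcna and Tyms have annotated pseudogene copies, and the sources used here do not say how reads shared with such copies were counted.

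Ube2c had 94.8 and 96.2 CPM in Virma cKO, against 141 and 148 CPM in Virma WT (−0.60 ± 0.06, adjusted p = 2.51e-09), and Cdc20 fell by 0.56 ± 0.06. Mad2l1 did not pass (−0.08 ± 0.07, adjusted p = 0.307). Ube2c shares 22.8% of its exon bases with the oppositely directed gene Tnnc2, and Kif20a 29.3% with Cdc23. Besides Gins2, the other 11 members with an exon overlap on either strand share less than 20%, Top2a only with a gene on its own strand.

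In the chromosomal passenger complex, Cdca8 had 86.0 and 90.8 CPM in Virma cKO, against 130.0 and 140.3 CPM in Virma WT (−0.62 ± 0.06, adjusted p = 9.47e-09). Its partners did not pass, with Birc5 at 196 and 204 CPM in Virma cKO, against 203 and 200.4 CPM in Virma WT (−0.02 ± 0.04) and Aurkb at 0.04 ± 0.07. All 6 spindle and midzone genes were lower, between −0.45 for Nusap1 and −0.23 for Kif20a. Cenpa (−0.18 ± 0.06) and Top2a (−0.23 ± 0.04) were lower, and Mki67 did not pass (0.02 ± 0.04). The genes that were higher in Virma cKO were both of the outer kinetochore, Cenpf (0.34 ± 0.04) and Cenpe (0.11 ± 0.04). With the length and GC trend removed they stood at 0.14 and −0.0231. The call of Cenpe ended without the second Virma WT library (0.0693), the second Virma cKO library (0.0931) or either library labelled Mettl3 cKO (0.10), and that of Cenpa ended without the first Virma cKO library (−0.13) or the second Virma WT library (−0.14).

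**Figure D3:**
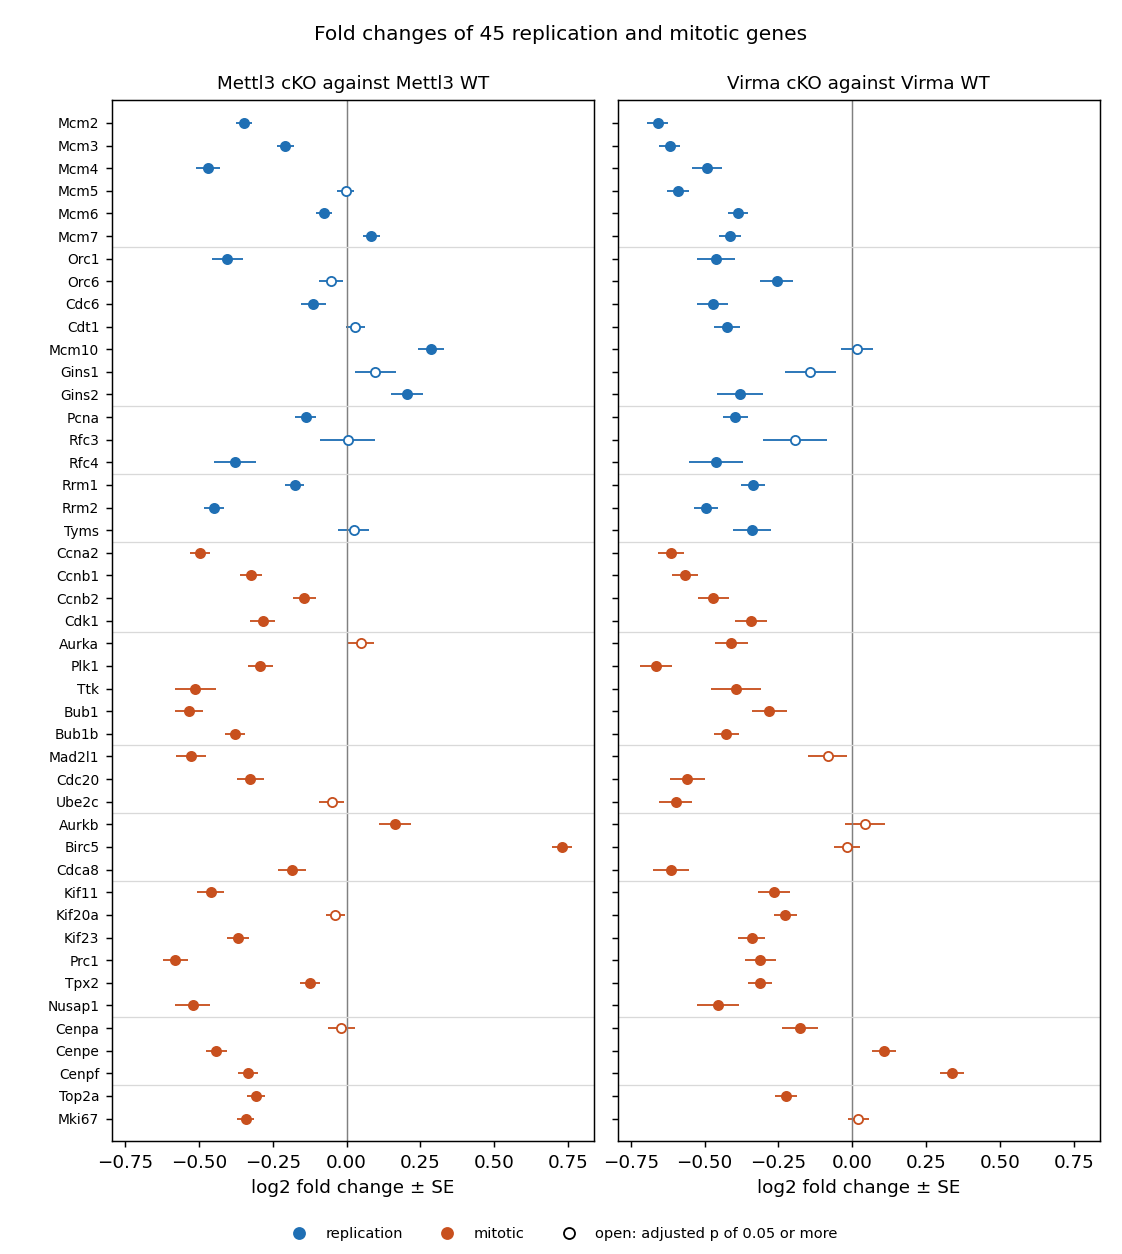
Log2 fold changes with SE of the 45 genes, cKO over WT, in the Mettl3 line (left) and the Virma line (right), replication genes in blue and mitotic genes in orange, with open circles for an adjusted p of 0.05 or more and grey lines between roles. In the right panel 16 of 19 blue points are filled left of 0 and none right of it, and Cenpe and Cenpf are the filled points right of 0.

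Set side by side, 10 replication genes were lower in both lines (Mcm2, Mcm3, Mcm4, Mcm6, Orc1, Cdc6, Pcna, Rfc4, Rrm1 and Rrm2), and 16 mitotic genes were (Ccna2, Ccnb1, Ccnb2, Cdk1, Plk1, Ttk, Bub1, Bub1b, Cdc20, Cdca8, Kif11, Kif23, Prc1, Tpx2, Nusap1 and Top2a). That was 52.6% of the replication genes and 61.5% of the mitotic genes, against 14.2% of all genes tested that were lower in both. The groups of the lines share no libraries. The difference of the effects, Virma effect minus Mettl3 effect, was tested in the same fit. It was negative for 13 of 19 replication genes (68.4%), against 21.2% of all genes tested, and was positive for 0, also at an unadjusted p under 0.05. Of 26 mitotic genes it was negative for 10 (38.5%) and positive for 7 (26.9%), against 17.9% positive over all genes. The medians were −0.27 and −0.09, against 0.00 for all genes. With the length and GC trend removed it was negative for 12 and positive for 0 of the replication genes, and negative for 8 and positive for 0 of the mitotic genes. Over all genes tested it was then negative for 2640 and positive for 1841. With total count scaling 60.3% of all calls were positive in place of 45.8%. The medians of the difference were then −0.17 for replication genes and 0.01 for mitotic genes, against 0.09 for all genes.

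Among replication genes the difference was largest for Mcm5, which had 445 and 455 CPM in libraries labelled Mettl3 cKO, against 457 and 445 CPM in Mettl3 WT and was lower by 0.59 ± 0.04 in Virma cKO. The difference was −0.59 ± 0.05 (adjusted p = 5.62e-10). Gins2 had 113 and 120.5 CPM in libraries labelled Mettl3 cKO, against 107 and 95.8 CPM in Mettl3 WT, and 58.8 and 57.0 CPM in Virma cKO, against 71.4 and 79.1 CPM in Virma WT. It was called in opposite directions, with a difference of −0.58 ± 0.09 (adjusted p = 2.55e-05). Mcm7 was likewise called in opposite directions, with 505 and 521 CPM in libraries labelled Mettl3 cKO, against 477 and 489.5 CPM in Mettl3 WT, and 396 and 415 CPM in Virma cKO, against 546 and 532 CPM in Virma WT. Its difference was −0.50 ± 0.05 (adjusted p = 6.97e-09), and its rise in the Mettl3 line was the smaller part of it. Cdt1 had 237 and 237 CPM in libraries labelled Mettl3 cKO, against 229 and 235 CPM in Mettl3 WT, and 137 and 136 CPM in Virma cKO, against 181 and 185 CPM in Virma WT (difference −0.45 ± 0.06, adjusted p = 6.16e-07). For Mcm4 (−0.02), Rrm2 (−0.05), Orc1 (−0.06), Rfc4 (−0.08), Rfc3 (−0.20) and Gins1 (−0.24) no difference was called.

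Among mitotic genes Birc5 had a difference of −0.75 ± 0.06 (adjusted p = 1.8e-10), made of 0.73 in the Mettl3 line and −0.02 in the Virma line. Cenpf had 223 and 214 CPM in libraries labelled Mettl3 cKO, against 283 and 267 CPM in Mettl3 WT, and 336 and 345 CPM in Virma cKO, against 268 and 269.7 CPM in Virma WT. It was lower in the Mettl3 line and higher in the Virma line with no overlap in either (difference 0.67 ± 0.05, adjusted p = 6.43e-10). Cenpe had 177 and 176 CPM in libraries labelled Mettl3 cKO, against 239 and 240.4 CPM in Mettl3 WT, and 254 and 259 CPM in Virma cKO, against 243 and 232 CPM in Virma WT. The same opposite calls held, with a small margin in the Virma line (adjusted p = 0.0335 there, difference 0.55 ± 0.05, adjusted p = 2.06e-08). Ube2c had a difference of −0.55 ± 0.07 (adjusted p = 9.72e-07). Mad2l1 (0.44), Mki67 (0.36), Prc1 (0.27), Bub1 (0.25) and Kif11 (0.19) were the other positive ones. The remaining negative ones ran from −0.46 for Aurka through Cdca8, Plk1, Ccnb2, Ccnb1, Cdc20 and Tpx2 to −0.19 for Kif20a. Calls of the difference ended for Bub1 without the second library labelled Mettl3 cKO (0.19) or the second Virma WT library (0.21), and for Cdc20 without the first library labelled Mettl3 cKO (−0.20). That of Kif11 ended without any of 5 libraries in turn (0.12 to 0.19), and those of Orc6 (−0.19) and Rrm1 (−0.15 to −0.16) without the first Virma WT library or 1 library labelled Mettl3 cKO.

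The difference varied with the base composition of the transcripts. Across the 45 genes, which share libraries and are not independent, Spearman's rho of the difference with the GC content of the longest annotated transcript was −0.745, and across 13944 tested genes with a transcript it was −0.328. The 7 positive members had a GC content of 40.1% to 46.6% and a median length of 7557 bases, and the 23 negative members one of 43.3% to 57.8% and a median length of 3358 bases. Lengths too are those of the longest annotated transcript, which need not be the one expressed, and 7557 bases is that of Mad2l1. Within lines, rho with GC content was 0.599 for the Mettl3 effect and −0.417 for the Virma effect. Across the 13944 genes it was 0.326 for the Mettl3 effect and −0.0331 for the Virma effect. With the length and GC trend removed, none of the 7 positive mitotic differences was called. The negative ones of Plk1 (−0.15), Ccnb2 (−0.16), Cdc20 (0.0273) and Orc6 (−0.11) were not called either, and Top2a (−0.21), not called before, was called negative. Of the 4 members called in opposite directions, Gins2 kept both calls and the others did not, since Mcm7 stood at −0.0161 and Cenpf at 0.0122 in the Mettl3 line and Cenpe at −0.0231 in the Virma line. The difference was then 0.13 for Cenpf (adjusted p = 0.0543) and 0.11 for Cenpe (adjusted p = 0.0935) and stayed at −0.76 for Birc5, and the median over replication genes stayed at −0.27. Removing the trend also moved the median of mitotic genes in the Mettl3 line to −0.21.

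**Figure D4:**
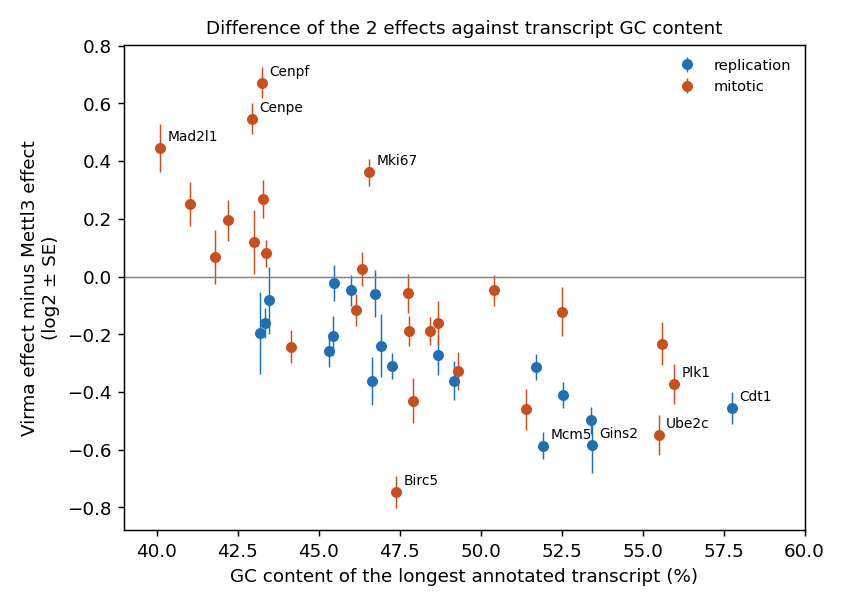
Difference of the effects (Virma effect minus Mettl3 effect, log2 with SE, y axis) against the GC content of the longest annotated transcript (percent, x axis), replication genes in blue and mitotic genes in orange. Cenpf, Cenpe and Mad2l1 lie at the upper left below 44% GC, Ube2c, Plk1 and Cdt1 at the lower right above 55%, and Birc5 lies at −0.75 near 47%.

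The WT groups of the lines differed for single members of both classes, at shares not far from those of all genes. In Virma WT against Mettl3 WT, 6 replication genes were higher (31.6%) and 6 lower (31.6%), and 4 mitotic genes were higher (15.4%) and 8 lower (30.8%). Over all genes tested 25.4% were higher and 22.2% lower. The medians were 0.05 for replication genes and −0.02 for mitotic genes, against 0.03 for all genes. Mad2l1 had 87.1 and 82.3 CPM in Virma WT, against 126 and 119 CPM in Mettl3 WT (−0.53 ± 0.05). Tyms was higher by 0.38 ± 0.05 in Virma WT, while Mcm2 (−0.29 ± 0.03), Cdt1 (−0.34 ± 0.03) and Gins2 (−0.43 ± 0.06) were lower there. Line and any batch of the libraries cannot be told apart. With Virma WT in place of Mettl3 WT as the control for the libraries labelled Mettl3 cKO, 12 replication genes were lower and 5 higher and 18 mitotic genes were lower and 3 higher. Of all 14229 genes tested, 4159 were lower and 4166 higher against that control. Against that control Mcm4 (−0.49), Rrm2 (−0.31), Prc1 (−0.44), Bub1 (−0.28) and Birc5 (0.56) kept their direction and call. Mcm2 (−0.05, adjusted p = 0.109), Top2a (−0.05, adjusted p = 0.133), Cdk1 (−0.04, adjusted p = 0.389), Ccnb2 (0.01) and Mad2l1 (0.01) were no longer called lower, Cdt1 was called higher (0.37), and Gins2 stood at 0.63.

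**Figure D5:**
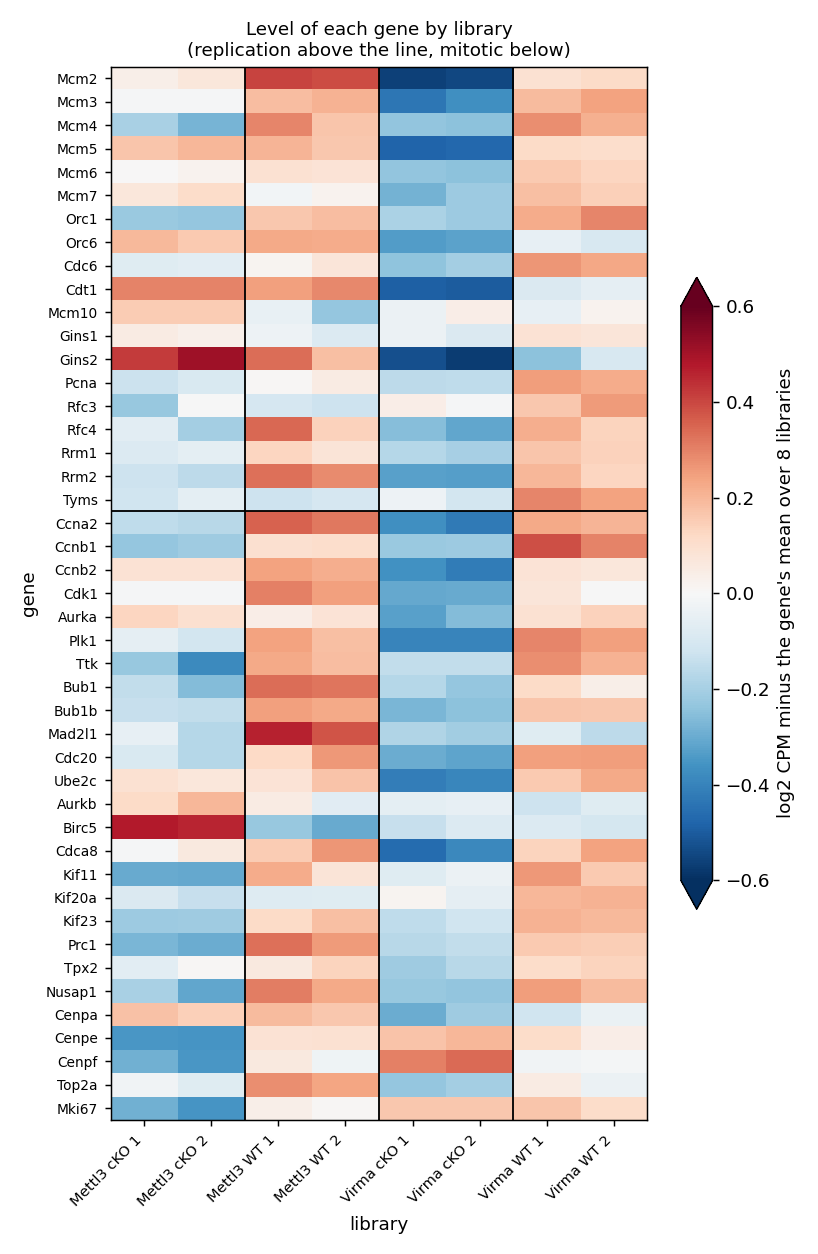
Level of each of the 45 genes (rows) in each of the 8 libraries (columns), as log2 CPM minus the mean of that gene over all libraries, red for above and blue for below. The Virma cKO columns are blue for nearly all replication genes, Birc5 is red in the Mettl3 cKO columns, and Cenpe and Cenpf are blue in those columns and red in the Virma cKO columns.

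Changes were also set beside the promoter words. The median log2 fold change of the 8 replication genes with an E2F word was −0.04 in the Mettl3 line and −0.44 in the Virma line, against −0.16 and −0.37 for the 8 without. The 16 mitotic genes with TTTGAA, the only CHR word searched, had medians of −0.32 and −0.37, against −0.48 and −0.18 for the 6 without that word. These medians are descriptions with no test.

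Genes of the same processes outside the 45 were also more often lower than higher in both lines. Of 50 other replication genes, 25 were lower (50%, against 28% of all genes) and 12 higher (24%, against 27.1%) in the libraries labelled Mettl3 cKO, with a median of −0.11. In Virma cKO 31 were lower (62%, against 26.1%) and 6 higher (12%, against 26.2%), with a median of −0.27. The catalytic subunit of the priming polymerase, Pola1 (−0.61 ± 0.06), the chromatin factor Atad2 (−0.69 ± 0.05) and Gins3 (−0.60 ± 0.09) were lowest in the Mettl3 line, and Gins3 (−1.07 ± 0.13), the polymerase delta subunit Pold2 (−0.68 ± 0.08) and the nuclease and helicase Dna2 (−0.65 ± 0.09) in the Virma line. Against that direction, Fen1, the nuclease that trims Okazaki fragments, was higher in both (0.66 ± 0.04 in the Mettl3 line and 0.55 ± 0.04 in the Virma line), as was Dbf4, the activating subunit of the Cdc7 kinase (0.48 ± 0.04 and 0.68 ± 0.04). Thymidine kinase, Tk1, was higher in the Mettl3 line (0.81 ± 0.04).

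Of 62 other mitotic genes, 38 were lower (61.3%, against 28% of all genes) and 12 higher (19.4%, against 27.1%) in the libraries labelled Mettl3 cKO, with a median of −0.23. In Virma cKO 32 were lower (51.6%, against 26.1%) and 13 higher (21.0%, against 26.2%), with a median of −0.17. Anillin, Anln, a scaffold of the cleavage furrow (−0.73 ± 0.05), and the condensin subunits Smc4 (−0.70 ± 0.03) and Ncapg (−0.70 ± 0.05) were lowest in the Mettl3 line. The motor Kif22 (−0.76 ± 0.06), the Cdk1-activating phosphatase Cdc25c (−0.73 ± 0.12) and the central spindle protein Racgap1 (−0.67 ± 0.06) were lowest in the Virma line. Cdca5 (sororin), which guards sister cohesion, was higher in both (0.76 ± 0.06 in the Mettl3 line and 0.70 ± 0.07 in the Virma line), and its partner at centromeres Sgo1 was higher in the Virma line (0.57 ± 0.07). Of the 62 genes, the difference of the effects was positive for 20 (32.3%, against 17.9% of all genes) and negative for 14 (22.6%, against 21.2%), with the large kinetochore scaffold Knl1 (0.77 ± 0.10) and the spindle pole protein Aspm (0.76 ± 0.09) the most positive and Mybl2 (−0.60 ± 0.05), a subunit of the MMB complex, the most negative. Of the 50 replication genes it was positive for 6 (12%) and negative for 21 (42%), from −0.69 for the single-strand binding subunit Rpa2 to 0.68 for Atad2. None of these 62 and 50 genes was examined with the length and GC trend removed, a setting in which no positive difference of a mitotic member was called.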

How the data were processed

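RNA of 8 mESC libraries, 2 in each of 4 groups named in their titles, was analysed from the raw counts per gene symbol that the authors deposited. Of 21812 symbols, 3527 had no count. The build mm39 and the tools STAR 2.7.11b, Subread, Trim Galore, DESeq2 and FastQC 0.12.1 are named per the submitters' processing notes. The sources used here do not give the role of each, the annotation or the strand setting. Per the labels' protocols a stranded total RNA kit and a universal kit were both used, and which library had which is not given there.

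With R 4.3.3, edgeR 4.0.16 was used for a quasi-likelihood test fitted to all groups together with TMM factors, robust dispersion and filterByExpr, which kept 14229 genes. The Virma cKO pair entered as its rounded mean, assumed to vary like the other groups, which left 3 residual degrees of freedom. P-values were adjusted over all genes tested. CPM were computed from the counts. Transcript lengths and GC content were those of the longest transcript per symbol in GENCODE M21 (GRCm38), which need not be the one expressed. The code was tested on simulated data. Alternatives included DESeq2 1.42.0, other scalings and filters, removal of a length and GC trend by loess, and leaving out each library.

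Members and lists were chosen with earlier results of these data known. Given in full are the 4 replication and 5 mitotic genes with the largest called change per line, up to 4 per list with the largest difference between lines, and members called in opposite directions. Of other lists, up to 3 called genes per comparison and direction could be named if their average log2 CPM reached 2.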

Additional observations from a re-analysis of the deposited data

Results flagged for a closer look

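The cKO effect differed between the lines for 30 of the 45 genes by the test of the difference itself (edgeR's quasi-likelihood test, adjusted p under 0.05 over all genes tested). Over all 14229 genes tested, 5569 were called, 17.9% with a positive and 21.2% with a negative difference. Values are log2 differences, Virma effect minus Mettl3 effect. Of the replication genes, the helicase subunits Mcm5 (−0.59), Mcm7 (−0.50), Mcm3 (−0.41), Mcm2 (−0.31) and Mcm6 (−0.31) were flagged. So were the genes of loading and firing, Gins2 (−0.58), Cdt1 (−0.45), Cdc6 (−0.36), Mcm10 (−0.27) and Orc6 (−0.20), the clamp Pcna (−0.26), and Tyms (−0.36) and Rrm1 (−0.16) of nucleotide supply.

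Of the mitotic genes, negative differences were flagged for Birc5 (−0.75), Ube2c (−0.55), Aurka (−0.46), Cdca8 (−0.43), Plk1 (−0.37), Ccnb2 (−0.33), Ccnb1 (−0.24), Cdc20 (−0.23), Tpx2 (−0.19) and Kif20a (−0.19). Positive ones were flagged for Cenpf (0.67), Cenpe (0.55), Mad2l1 (0.44), Mki67 (0.36), Prc1 (0.27), Bub1 (0.25) and Kif11 (0.19), none of which was called with a trend on length and GC content removed. The negative differences of Plk1, Ccnb2, Cdc20 and Orc6 were not called under that setting either.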

How the results depend on the processing

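Counts of lower genes in both lists and all comparisons stayed within 1.5 times under every alternative run. Of mitotic genes higher in the Mettl3 line (2), 1 was called in DESeq2, with the length and GC trend removed and at an adjusted p under 0.01, and 1 to 2 with a library left out. Of mitotic genes higher in the Virma line (2), 1 was called in DESeq2, with no filter, with the trend removed, at 0.01 and when the line had its own fit, 1 to 2 with a library left out, and 5 with total count scaling, which also called 1 replication gene higher (0 before). Of mitotic genes with a positive difference (7), 0 were called with the trend removed. Of replication genes higher in the Mettl3 line (3), 5 were called against Virma WT, and 1 to 3 with a library left out, the 1 without the second library labelled Mettl3 cKO.

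Single values changed sign in these cases. With total count scaling Birc5 stood at 0.11 in the Virma line. With the trend removed, values in the Mettl3 line were 0.0173 for Mcm6, −0.0161 for Mcm7, −0.18 for Cdt1, 0.0632 for Rrm1 and 0.0122 for Cenpf, those in the Virma line −0.16 for Mki67 and −0.0231 for Cenpe, and differences −0.0801 for Mki67, −0.21 for Top2a, 0.0273 for Cdc20, −0.0942 for Kif11 and −0.0471 for Mad2l1. Against Virma WT, the libraries labelled Mettl3 cKO stood at 0.0698 for Mcm5, −0.0727 for Mcm7, 0.25 for Orc6, −0.32 for Rfc3, −0.36 for Tyms, 0.0115 for Ccnb2, 0.24 for Cenpa and 0.00624 for Mad2l1. The cause was not tested.

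Deviations of libraries with the same number were nearly uncorrelated (r of −0.02 to 0.07 over 12130 genes). Over all genes the Virma cKO pair differed by no more than sampling noise (chi-square per degree of freedom 0.914). The correlation therefore cannot show whether the numbers pair libraries of the Virma line. In the Mettl3 line the pairs differed by more than sampling noise (2.84 in Mettl3 WT and 1.62 in Mettl3 cKO). There r was 0.035, though the part that is sampling noise lowers such a correlation. The main fit used no pairing. With the replicate block on 8 libraries, 10 replication and 20 mitotic genes were lower in the Mettl3 line, 17 and 20 in the Virma line, and the difference was negative for 14 and 12. Over all genes tested these numbers were 4199, 4375 and 3597. With 2 libraries a group, and the Virma cKO pair as 1 sample, an effect not called is not shown to be absent.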

Other observations

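Of 17 genes of E2F factors, pocket proteins and their complexes, 6 were lower (35.3%, against 28% of all genes tested) and 2 higher (11.8%, against 27.1%) in the libraries labelled Mettl3 cKO, with a median of −0.07. In Virma cKO 3 were lower (17.6%, against 26.1%) and 2 higher (11.8%, against 26.2%), with a median of 0.00, so the lower calls were near or below the background. The pocket proteins Rb1 (−0.91 ± 0.14) and Rbl2 (−0.86 ± 0.14), which hold E2F targets silent, were lower in the Mettl3 line, where the activator E2f2 (0.37 ± 0.11) and the repressor E2f6 (0.44 ± 0.08) were higher. In Virma cKO the repressors E2f8 (−0.84 ± 0.08) and E2f4 (−0.61 ± 0.04) and the DREAM subunit Lin37 (−0.43 ± 0.16) were lower, and E2f6 (0.39 ± 0.09) and E2f3 (0.28 ± 0.07) were higher. E2f8 was lower in the Mettl3 line too (−0.60 ± 0.06). The difference of the effects was positive for 6 of the 17 genes (35.3%, against 17.9% of all genes), among them Rb1 (1.09 ± 0.22), Rbl2 (0.67 ± 0.24) and Rbl1 (0.60 ± 0.16), and negative for E2f4 (−0.65 ± 0.05). All of these are calls of edgeR's quasi-likelihood test with an adjusted p under 0.05. None of these 17 genes was examined with the length and GC trend removed.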
